A study of Mus musculus with 4 samples.

Results

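The Hes and Hey genes encode small basic helix-loop-helix proteins that bind DNA and repress transcription. The 8 genes described here, Hes1, Hes2, Hes5, Hes6, Hes7, Hey1, Hey2 and Heyl, were chosen by symbol in the deposited table of expected counts, and all 8 were found among its 20325 gene symbols. RNA levels were measured by RNA sequencing in C3H10T1/2 cells, a multipotent mesenchymal line derived from embryos of C3H mice. Of 4 libraries, 2 came from cells stably expressing histone H3.3 with the lysine-to-methionine substitution K36M and 2 from cells stably expressing wild type (WT) H3.3, and both versions carried a FLAG-HA tag. K36M is known as an inhibitor of the enzymes that methylate lysine 36 of histone H3, and the comparison asks how expression differs between mesenchymal cells with the mutant and with the wild type histone. The sources used here do not give whether a group is 1 clone or which promoter drove the transgene. Cells of both groups carry a tagged histone, so neither is an unmodified line.

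Notch signaling is the best known input to these genes. A ligand of the Delta or Jagged type on one cell releases the intracellular part of a Notch receptor on its neighbour, which joins the DNA-binding protein RBPJ and a Mastermind co-activator and switches on Hes and Hey genes. Hes proteins recruit TLE co-repressors through a short motif at their C-terminus. In limb and bone mesenchyme, Notch acting through RBPJ is known to hold progenitors back from becoming cartilage, and Hes1 is one of its mediators there. Some of these genes also answer to other signals, such as BMP for Hey1 and Hedgehog for Hes1.

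Library totals lay between 34022137 and 56041798 expected counts for K36M and between 23343297 and 25322433 for WT, so a single count weighs less in the K36M libraries. Levels are given as CPM, the count relative to library size after scaling by the trimmed mean of M-values (TMM), and fold changes and tests come from edgeR's quasi-likelihood test over 13162 genes, with Benjamini-Hochberg adjusted p-values. Log2 CPM correlated across genes at r = 0.997 between the K36M libraries and 0.995 between the WT libraries, against 0.894 to 0.896 between groups. No count used here separates the transgene from the endogenous H3.3 genes, so the genotype labels were not checked against expression. The mesenchymal label was checked with 10 marker genes, all of which passed the low-count filter. They were expressed in every library but not at equal levels, with 4 higher, 5 lower and 1 not past the threshold, and summed to 24869.6 and 23155.7 CPM in K36M and 31275.3 and 30939.4 CPM in WT. At an adjusted p under 0.05, 90% of them passed, beside 75.6% of all genes tested. Thy1, a surface antigen, was higher at 35.7 and 35.3 CPM in K36M and 3.51 and 2.82 CPM in WT, and the collagen gene Col3a1 lower at 1934 and 1880 CPM in K36M and 5458 and 5519 CPM in WT. Prrx1, a mesenchymal homeobox factor and the marker not past the threshold, stood at 821 and 852 CPM in K36M and 798 and 797 CPM in WT. No label says that the libraries of a group came from separate cultures, and the p-values may therefore rest on technical spread alone. With 2 libraries against 2, an exact permutation test of a single value cannot go below p = 0.333.

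Hey1 and Hey2 were expressed in WT cells and nearly lost in K36M cells, Hes1 and Hes6 were lower but remained the main transcripts of the family, and Hes7 was higher at a level close to detection. Hes2, Hes5 and Heyl had too few counts to be tested. Of the 5 genes tested, 4 were lower and 1 was higher at an adjusted p under 0.05, in a comparison where 75.6% of all genes tested passed that threshold, 37.1% lower and 38.5% higher. Passing it is therefore no distinction here, and the size of the change says more. Hes1, Hey1 and Hey2 were at least 2-fold lower, which held for 8.69% of all genes tested, and Hey1 and Hey2 were at least 10-fold lower, which held for 1.70%. The low-count filter asked for 0.337 CPM in at least 2 libraries. Hey2 met it in the WT libraries alone and Hes7 in the K36M libraries alone, so these genes could enter the test only with a difference.

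**Figure D1:**
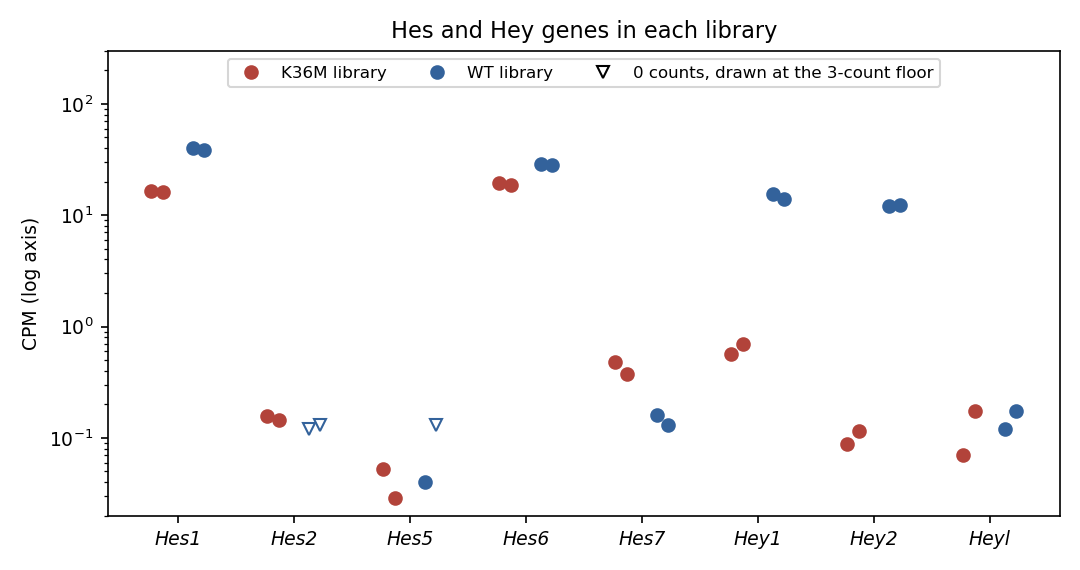
CPM (log axis) of each Hes and Hey gene in the 2 K36M libraries (red, left of each gene) and the 2 WT libraries (blue, right). Hey1 and Hey2 lie below 1 CPM in both K36M libraries and above 10 CPM in both WT libraries, while Hes1 and Hes6 differ less; open triangles are libraries with 0 counts, drawn at the level of 3 counts.

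Hey2 showed the largest change of the family. It encodes a repressor known from the ventricular heart muscle and from arterial endothelium, where it works together with Hey1. Its level was 0.0880 and 0.115 CPM in the K36M libraries, which rests on 5 and 4 counts. In the WT libraries it was 11.98 and 12.30 CPM. Every K36M value lay far below every WT value. The fitted log2 fold change was -6.90 ± 0.20 (SE, n = 2 libraries a group; 95% interval -7.33 to -6.47), a 119-fold lower level with adjusted p = 5.56e-16 by edgeR. Pooled over libraries, 9 counts in K36M stood against 580 in WT, a ratio of 0.00810 with a 95% counting interval (Clopper-Pearson, scaled by depth) of 0.00369 to 0.0155. That interval is wider than the fitted one, so the fold change of Hey2 is less precise than its SE says. Among all genes tested Hey2 had the 25th lowest fold change. In the authors' deposited table, which lists 594 genes by their own scaling with 1 added to each value, Hey2 had a ratio of K36M over WT of 0.0103.

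The promoter of Hey2 is printed here because Hey2 changed most, and those of Hes7, which changed the other way, and Hes5, chosen after its values were seen as a comparison, stand beside it. Of the 8 genes, Hes5, Hes6, Hes7 and Hey2 matched the RefSeq promoter table (build GRCm38.p6), and Hes1, Hes2, Hey1 and Heyl did not. Each sequence runs 5′ to 3′ in the direction of transcription, from 250 bases before to 50 bases after the annotated start. Capitals mark GTGGGAA, the core of the RBPJ binding sequence, or its reverse complement TTCCCAC. Hey2 lies at chr10:30842734-30843033 on the minus strand, Hes7 at chr11:69120203-69120502 on the plus strand and Hes5 at chr4:154960673-154960972 on the plus strand.
Hey2: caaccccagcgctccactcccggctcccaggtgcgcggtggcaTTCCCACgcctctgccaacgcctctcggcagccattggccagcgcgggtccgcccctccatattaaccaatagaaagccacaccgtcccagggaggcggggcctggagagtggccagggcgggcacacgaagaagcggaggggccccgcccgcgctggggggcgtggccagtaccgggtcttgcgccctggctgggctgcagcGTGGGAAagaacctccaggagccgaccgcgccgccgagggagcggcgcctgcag
Hes7: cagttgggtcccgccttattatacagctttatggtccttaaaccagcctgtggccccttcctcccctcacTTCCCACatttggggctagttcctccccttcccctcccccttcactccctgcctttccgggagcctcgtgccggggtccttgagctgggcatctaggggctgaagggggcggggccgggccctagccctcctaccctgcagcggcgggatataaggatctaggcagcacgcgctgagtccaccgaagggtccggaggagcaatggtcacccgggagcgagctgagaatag
Hes5: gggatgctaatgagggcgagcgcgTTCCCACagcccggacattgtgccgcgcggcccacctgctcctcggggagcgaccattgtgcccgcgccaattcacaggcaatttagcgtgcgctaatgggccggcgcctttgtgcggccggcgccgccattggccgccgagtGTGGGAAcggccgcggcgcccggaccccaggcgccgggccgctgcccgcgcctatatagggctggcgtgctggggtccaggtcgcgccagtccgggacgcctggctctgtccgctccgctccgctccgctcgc
The Hey2 window held 2 copies in opposite orientations, with their first bases at -207 and -4 from the start. The Hes5 window also held 2 copies in opposite orientations, at -226 and -83, and the Hes7 window held 1, at -180. Both windows listed for Hes6 held 0. Of 32851 promoter windows of the same length, 6.38% held at least 1 copy on either strand and 0.256% held at least 2. The shorter core TGGGAA, which every copy of GTGGGAA contains, was in 25.6% of windows and added no further match in the windows of these 4 genes. The E box CACGTG, a form that Hey proteins can bind, was in 7.15% of windows and in none of these. CACGCG, a sequence that Hes1 binds, was in 9.27% of windows and in that of Hes7 once, at -14. The N box CACNAG, where N is any base, was in 42.5% of windows, once in that of Hes7 at -116 and with 2 matches in 1 of the 2 Hes6 windows. These are matches of letters and do not show binding.

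**Figure D2:**
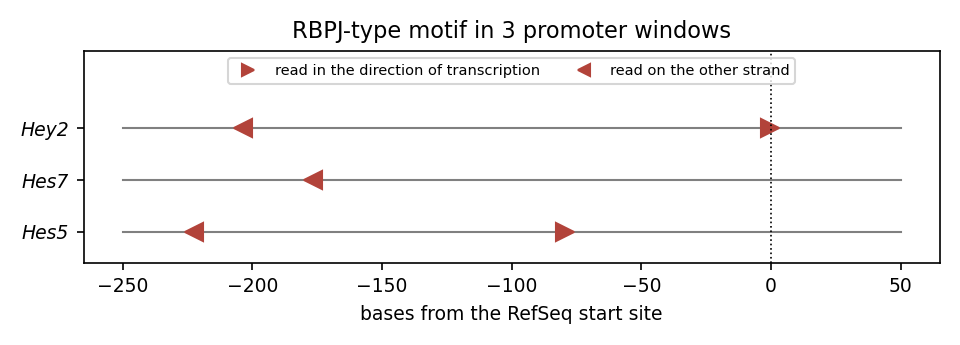
Position of the 7-base RBPJ-type motif, in bases from the RefSeq start site (dotted line), in the promoter windows of Hey2, Hes7 and Hes5. Triangles point in the direction in which the motif reads; Hey2 and Hes5 hold 2 copies each and Hes7 holds 1.

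Hey1, the closest relative of Hey2 and a target of both Notch and BMP signals in bone-forming cells, changed in the same direction. It stood at 0.563 and 0.691 CPM in K36M, from 32 and 24 counts. In WT it stood at 15.7 and 13.9 CPM. The groups did not overlap. The log2 fold change was -4.59 ± 0.15 (SE, n = 2 a group; 95% interval -4.89 to -4.28), 24.0-fold lower with adjusted p = 1.93e-15 by edgeR, the 97th lowest fold change of all genes tested. The authors' deposited table gave Hey1 a ratio of 0.0419. Its pooled counts gave a ratio of 0.0413 with a counting interval of 0.0309 to 0.0543, which again is wider than the fitted interval. Neither the fitted nor the counting intervals of Hey1 and Hey2 meet, although the difference between the 2 fold changes was not itself tested. Heyl, the remaining Hey gene and a gene of vascular smooth muscle, was close to detection everywhere, with 4 and 6 counts in K36M and 3 and 4 counts in WT. Its counts gave a ratio of 0.746 with a counting interval of 0.256 to 2.31, which does not exclude a change of 2-fold in either direction. Such intervals and floors hold counting error alone, as no molecular identifiers were used.

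Because Hey1 and Hey2 are best known from blood vessels, 13 endothelial markers were read beside them. Their summed level was 26.4 and 24.1 CPM in K36M and 60.0 and 57.2 CPM in WT. Of these 13 genes 5 were tested, of which 2 were lower (Erg and Tek), 2 higher (Cdh5 and Egfl7) and 1 not past the threshold (Vwf). That is 80% past it, beside 75.6% of all genes tested. Erg, an ETS factor, stood at 0.158 and 0.288 CPM in K36M and 18.2 and 16.9 CPM in WT. Tek, the angiopoietin receptor, stood at 4.88 and 4.58 CPM in K36M and 28.9 and 27.3 CPM in WT. The lower sum in K36M came from these 2 genes, the highest of the 13 in WT. Cdh5 went the other way, at 2.25 and 1.87 CPM in K36M and 0.847 and 0.434 CPM in WT. So did Egfl7, at 7.52 and 7.08 CPM in K36M and 1.94 and 1.69 CPM in WT. Erg met the low-count filter in the WT libraries alone, so it could enter the test only with a difference. Of the untested markers, Cldn5 and Sox17 had 0 counts in all 4 libraries, Kdr had at most 3 and Pecam1 at most 7 counts in any library. The part of vascular cells in the fall of Hey1 and Hey2 was not tested, and in bulk RNA fewer cells of a type cannot be told apart from less RNA per cell.

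Hes1, a widely used Notch effector and a factor that keeps progenitors undifferentiated, fell by much less. Its level was 16.7 and 16.3 CPM in K36M, from 946 and 567 counts. In WT it was 40.5 and 38.8 CPM. Replicates lay close together and the groups were well apart. The log2 fold change was -1.26 ± 0.06 (SE, n = 2 a group; 95% interval -1.39 to -1.14), 2.40-fold lower with adjusted p = 7.67e-13 by edgeR. Hes6 is an unusual member that antagonises Hes1 and favours differentiation in neurons and muscle, and it is not in general switched on by Notch. It stood at 19.5 and 18.5 CPM in K36M and 28.6 and 28.2 CPM in WT. Its groups also did not overlap, but the step was smaller, with a log2 fold change of -0.57 ± 0.06 (SE, n = 2 a group; 95% interval -0.71 to -0.44), 1.49-fold lower and adjusted p = 1.98e-07 by edgeR.

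The order of Hes1 and Hes6 was opposite in the 2 groups. Divided by transcript length (the longest protein-coding transcript in GENCODE M21, 1468 bases for Hes1 and 1335 for Hes6), Hes1 had 11.3 and 11.1 CPM per kb in K36M, below Hes6 with 14.6 and 13.9. In WT, Hes1 had 27.6 and 26.4 CPM per kb, above Hes6 with 21.4 and 21.1. The ratio of Hes1 to Hes6 within a library, which no scaling between libraries can alter, was 0.776 and 0.801 in K36M and 1.29 and 1.25 in WT. Pooled counts gave ratios of 0.785 (95% counting interval 0.732 to 0.841) in K36M and 1.27 (1.19 to 1.36) in WT, a change of 0.617-fold. The same ratio of Hey1 to Hey2 was 6.74 and 6.31 in K36M and 1.37 and 1.19 in WT, with pooled ratios of 6.55 (3.21 to 15.1) in K36M and 1.28 (1.15 to 1.44) in WT. Hey1 was thus the main remaining Hey transcript in K36M cells, at a level near that of Hes7.

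Over all 8 genes, Hes and Hey transcripts summed to 26.6 and 25.7 CPM per kb in K36M and 60.4 and 58.2 CPM per kb in WT. The Hey genes made up 1.06% and 1.44% of that sum in K36M and 18.5% and 18.2% in WT. Ordered by level per length, K36M cells had Hes6 first (14.3 ± 0.526 CPM per kb, SD, n = 2), then Hes1 (11.2 ± 0.163), Hey1 (0.259 ± 0.0371) and Hes7 (0.235 ± 0.0396). Hey1 and Hes7 overlapped there. Hes2 followed at 0.0600 CPM per kb, and the order ended with the overlapping Hey2, Hes5 and Heyl, between 0.0268 and 0.0398 CPM per kb on average. WT cells had Hes1 first (27.0 ± 0.864), then Hes6 (21.3 ± 0.239), Hey1 (6.10 ± 0.511) and Hey2 (4.76 ± 0.0867), none of which overlapped its neighbour. Hes7 (0.0806 ± 0.0121) and the untested genes followed far below.

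**Figure D3:**
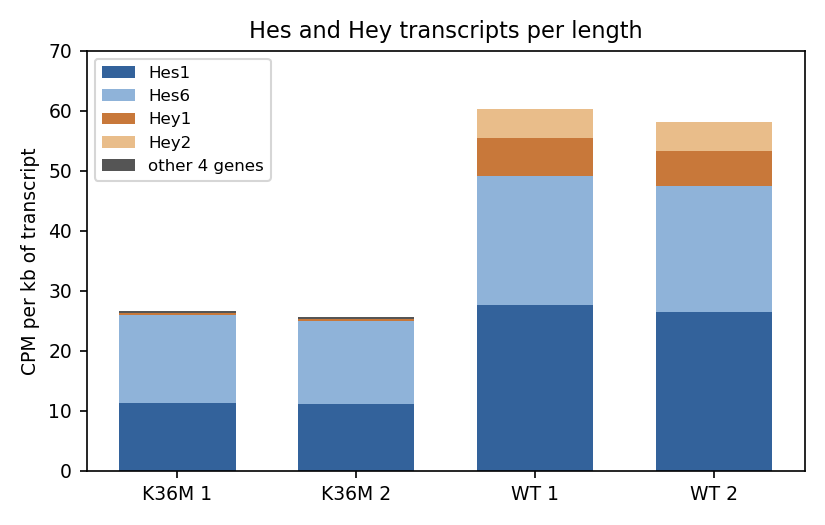
CPM per kb of transcript, summed over the 8 Hes and Hey genes in each library, with the share of each gene in colour. The Hey genes (orange shades) form 18.2% to 18.5% of the WT bars and 1.06% to 1.44% of the K36M bars, and Hes6 exceeds Hes1 in both K36M libraries.

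Hes7, which drives the oscillations of the segmentation clock in the presomitic mesoderm of the embryo, was the single gene of the family with a call in the other direction. It stood at 0.475 and 0.374 CPM in K36M, from 27 and 13 counts. In WT it stood at 0.161 and 0.130 CPM, from 4 and 3 counts. The groups did not overlap, but all values were low. The log2 fold change was 1.55 ± 0.52 (SE, n = 2 a group; 95% interval 0.46 to 2.64), 2.93-fold higher with adjusted p = 0.0103 by edgeR. Pooled counts of 40 in K36M and 7 in WT gave a ratio of 2.98 with a counting interval of 1.32 to 7.89. That interval is wider than the fitted one, so the SE of Hes7 too is smaller than counting error allows. The call was lost with the DESeq2 Wald test (adjusted p = 0.118) and without WT replicate 2 (adjusted p = 0.0719), and Hes7 did not pass the filter without K36M replicate 1. In GENCODE M21 the exons of Hes7 overlap a protein-coding gene on the opposite strand and those of Hes5 a non-coding one; the sources used here do not say whether strand was kept, so reads of such pairs cannot be told apart. Exons of the other 6 genes overlapped no other gene.

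Hes2 and Hes5 were at the limit of detection. Hes2 had 9 and 5 counts in K36M and 0 in both WT libraries, at least 2.44-fold higher in K36M against a floor of 3 counts over the WT group when the K36M counts are taken as exact. With counting error in both groups, the 95% interval of the ratio began lower, at 1.73. Hes5, a Notch effector of neural progenitors, had 3 and 1 counts in K36M and 1 and 0 in WT, a ratio of 2.09 with a counting interval of 0.207 to 103. Hes5 was therefore undetected or nearly so in every library. With no low-count filter, edgeR gave Hes2 an adjusted p of 0.0128 and Hes5 and Heyl adjusted p-values of 0.676 and 0.697. That fit, unlike the main one, had infinite degrees of freedom, so a gene's own spread between libraries does not enter these p-values. It gave no usable SE for Hes2.

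The 3 genes most like each called member with a change of at least 2-fold were taken by the Euclidean distance of log2 CPM over the 4 libraries, each gene centred on its own mean. With 2 groups of 2 libraries this distance mostly reads the size of the change. The log2 CPM were taken with a prior count of 2, which shrinks changes that rest on few counts. For Hey2, with 5 and 4 counts in K36M, the distance therefore reads a change smaller than the fitted one. Nearest to Hey2 were Frzb (distance 0.0899), a secreted Wnt antagonist, Susd5 (0.142) and Hapln1 (0.170), the link protein of cartilage matrix, which were 79.5-fold, 76.2-fold and 90.3-fold lower. Nearest to Hey1 were Fam19a5 (0.122), Tril (0.124) and Lpar4 (0.126), a receptor for lysophosphatidic acid, 23.0-fold, 22.5-fold and 22.1-fold lower. Nearest to Hes1 were Hebp2 (0.0351), Sema3c (0.0424), a semaphorin, and Fcgrt (0.0453), the neonatal Fc receptor gene, 2.38-fold, 2.43-fold and 2.38-fold lower. Nearest to Hes7 were Slc5a5 (0.0802), Bok (0.0804), a BCL2 family gene, and Xkrx (0.0972), 2.35-fold, 2.52-fold and 2.48-fold higher.

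Upstream of the Hes and Hey genes, the Notch pathway did not move in 1 direction. Of 58 genes of a Notch list found in the table (ligands, receptors, their processing, the nuclear complex, attenuators and other targets), 54 were tested, 15 were higher, 25 lower and 14 not past the threshold. That is 74.1% called, beside 75.6% of all genes, and the median log2 fold change of -0.04 stood beside 0.00 for all genes. By direction, 38.5% of all genes tested were called higher and 37.1% lower. Among the ligands, Jag1 fell to 33.7 and 32.5 CPM in K36M, against 197 and 188 CPM in WT. Jag2 was higher, at 13.5 and 11.1 CPM in K36M and 3.87 and 3.52 CPM in WT, as was Dll1, at 1.78 and 2.45 CPM in K36M and 0.282 and 0.261 CPM in WT. Dll1 had 7 and 6 counts in WT and met the low-count filter in the K36M libraries alone. It could therefore enter the test only with a difference. Jag1 was thus the ligand with the most counts in both groups, while its fall was 5.80-fold (adjusted p = 6.30e-19 by edgeR). Dll3 and Dll4 had at most 19 and 7 counts in any library and were not tested.

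The receptors divided evenly. Notch1 was at 33.4 and 30.4 CPM in K36M and 253 and 258 CPM in WT, 7.97-fold lower (adjusted p = 8.28e-20 by edgeR). Notch2 was 1.42-fold lower, at 162 and 151 CPM in K36M and 219 and 227 CPM in WT (adjusted p = 3.12e-09 by edgeR). Notch3, the receptor of mural cells, was 2.28-fold higher, at 145 and 132 CPM in K36M and 59.1 and 62.8 CPM in WT. Notch4 was 2.69-fold higher, at 2.43 and 1.61 CPM in K36M and 0.565 and 0.999 CPM in WT. Of 9 genes of Notch cleavage, 6 were lower and 0 higher, which is 66.7% called, beside 75.6% of all genes called and 37.1% called lower. Among them were the gamma-secretase gene Aph1b, 3.48-fold lower, the sheddase gene Adam17, 1.60-fold lower, and the presenilin gene Psen2, 1.59-fold lower. Of 8 tested genes of Notch glycosylation and ligand endocytosis, 3 were lower and 1 higher, which is 50% called, beside 75.6% of all genes. Lfng, a fringe glycosyltransferase, was 1.54-fold lower, the ubiquitin ligase gene Mib2 1.29-fold lower and Neurl1a 2.97-fold higher.

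In the nuclear complex the 2 largest changes ran in opposite directions. Rbpj, which encodes the DNA-binding partner of Notch, rose to 354 and 360 CPM in K36M, against 94.6 and 97.9 CPM in WT, 3.71-fold higher with adjusted p = 3.63e-18 by edgeR. Reads of Rbpj may be shared with its processed pseudogenes, and the sources used here do not give how the counting divided them. The co-activator gene Maml2 fell to 18.9 and 18.9 CPM in K36M, against 67.9 and 73.6 CPM in WT, 3.74-fold lower with adjusted p = 3.15e-16. Maml1 was 1.14-fold higher (adjusted p = 0.00303), a call lost with the authors' scaling factors (0.0864) and without WT replicate 1 (0.0857). Maml3 did not pass the threshold (log2 fold change -0.18, adjusted p = 0.295). Of 15 genes of this complex, 5 were higher and 5 lower, which is 66.7% called, beside 75.6% of all genes. The histone acetyltransferase gene Kat2a was 1.37-fold higher.

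**Figure D4:**
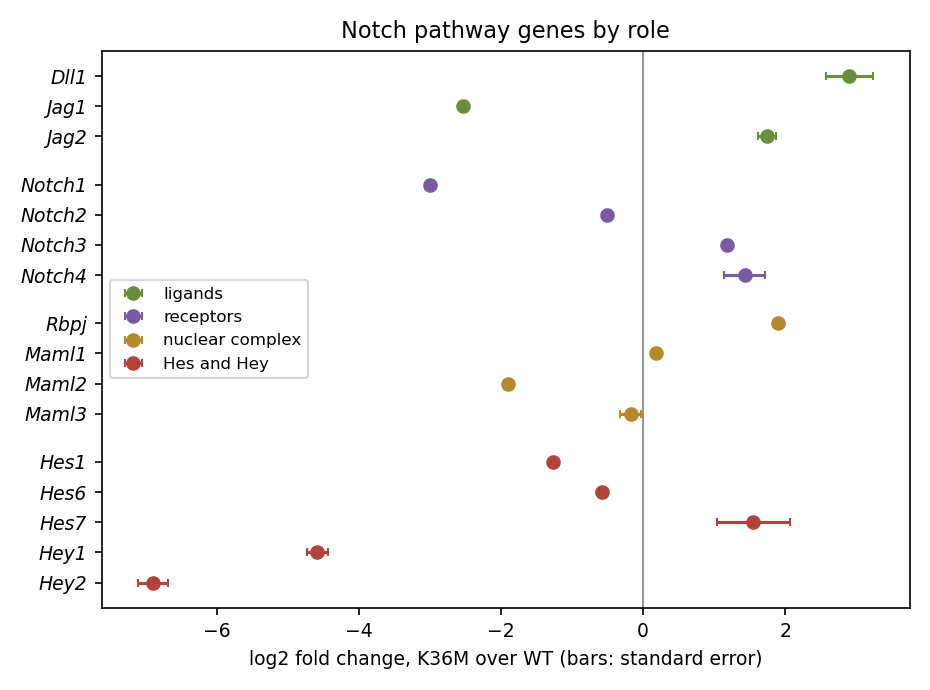
Log2 fold changes, K36M over WT, of Notch ligands, receptors, nuclear complex genes and the tested Hes and Hey genes, with standard errors from edgeR. Jag1, Notch1, Notch2, Maml2 and Maml3 (not past the threshold) lie left of 0 with Hes1, Hes6, Hey1 and Hey2. Jag2, Dll1, Notch3, Notch4, Rbpj and Maml1 lie right of it with Hes7.

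Other genes that Notch can switch on did not share 1 direction either. Nrarp, a feedback inhibitor and sensitive Notch target, was at 0.898 and 0.979 CPM in K36M and 1.53 and 1.52 CPM in WT, 1.64-fold lower (adjusted p = 0.00951 by edgeR). That call was lost with the DESeq2 Wald test (0.113) and without K36M replicate 1 (0.0826). Snai2, a zinc finger factor of mesenchyme, was 3.43-fold lower, at 36.1 and 38.3 CPM in K36M and 126 and 129 CPM in WT. Ccnd1, the cyclin D1 gene, was 1.70-fold higher, at 682 and 678 CPM in K36M and 411 and 390 CPM in WT. Of 5 tested genes of this list, 2 were higher and 3 lower, so all were called, beside 75.6% of all genes. Among 11 tested Notch attenuators, 3 were higher and 6 lower, which is 81.8% called, beside 75.6% of all genes. The non-canonical ligand genes Dlk2 and Dlk1 were 5.40-fold higher and 3.73-fold lower, and the ubiquitin ligase gene Dtx4 was 4.97-fold higher.

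Of 11 co-repressor genes listed for Hes or Hey proteins, 4 were higher and 4 lower, which is 72.7% called, beside 75.6% of all genes. Tle4 was 4.81-fold higher, at 15.4 and 14.7 CPM in K36M and 3.55 and 2.69 CPM in WT. Aes, a short TLE family member that can antagonise the others, was 1.86-fold higher and Tle2 1.58-fold lower. Of the related genes Hes3, Helt, Bhlhe40 and Bhlhe41, which share the Orange domain, Helt had 0 counts and Hes3 1 count over all 4 libraries. Bhlhe41 was 2.44-fold lower, at 6.29 and 5.64 CPM in K36M and 14.1 and 15.3 CPM in WT, and Bhlhe40, the hypoxia and clock gene, was 1.21-fold higher.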

How the data were processed

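RNA of 4 C3H10T1/2 libraries was sequenced after Trizol extraction and TruSeq library preparation, per the labels' protocols. The authors deposited raw expected counts (RSEM estimates that need not be whole), used by them for EBSeq, per the file headers; Bowtie 1.0.0, RSEM 1.2.12 and mm9 are named in the submitters' processing notes. A second table, deposited by the authors, holds 594 genes past a ratio of 10 in either direction, with a log2 value per library, matched here by multiplying each library's expected counts by 1 factor, adding 1 and taking log2 (largest difference 4.99e-09), and a linear fold ratio of K36M over WT. Each library's group came from its title.

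Expected counts, once rounded, went through edgeR 4.0.16 (R 4.3.3) with its filterByExpr, TMM scaling and quasi-likelihood F test, with 2 residual and 15.7 prior degrees of freedom, no replicate term, and Benjamini-Hochberg adjustment over 13162 genes, of which an adjusted p under 0.05 is a call. Standard errors are the unshrunken coefficient over the root of F. CPM use TMM effective library sizes. The 3-count floor is 0.0528 and 0.0863 CPM in the K36M and 0.121 and 0.130 CPM in the WT libraries. Sampling noise did not account for the differences within a group (chi-square per gene, on average, 7.04 between K36M libraries and 3.56 between WT libraries), so all 4 were kept as separate libraries. Alternatives used limma 3.58.1 and DESeq2 1.42.0.

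The members, gene lists and rules were chosen with earlier results of these data known. Named genes were all 8 members, the Notch ligands and receptors, Rbpj and the Maml genes, and up to 3 called genes with the largest change from each other list. Lengths came from GENCODE M21 and promoters from RefSeq, both matched by symbol; the promoter coordinates are of GRCm38.p6, not the build of the counts.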

Additional observations from a re-analysis of the deposited data

How the results depend on the processing

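Hes1, Hes6, Hey1 and Hey2 kept their direction and their call in all 14 alternatives (4 scalings, 2 filters, 2 other tests, the replicate block, thinning and 4 left-out libraries), with log2 fold changes of -1.35 to -1.21, -0.66 to -0.52, -4.79 to -4.41 and -7.05 to -6.33. A fit with a left-out library holds only 1 library in that group, so spread is read from the other group alone. Calls in those 4 fits are therefore a weak check, and the size of the change says more. The count of lower Hes and Hey genes was 4 throughout. Hes7 could be tested in 11 alternatives and was called in 9, with 1.55 (adjusted p = 0.118) under the DESeq2 Wald test and 1.40 to 1.71 over the left-out libraries, the lowest without WT replicate 2 (adjusted p = 0.0719). It did not pass the filter with a mean of at least 5 CPM, with libraries thinned to the smallest total and without K36M replicate 1. The count of higher Hes and Hey genes, 1 in the report, was 2 with no low-count filter, where Hes2 joins, 0 with a mean of at least 5 CPM, 0 with DESeq2, 0 with thinning and 0 to 1 over the left-out libraries. For the other named genes 531 of their alternatives kept direction and side of the threshold, 7 lost the call and 0 reversed. Same-numbered libraries are not said to be paired, and their deviations correlated at r = 0.00263 across genes; with the replicate number as a block, 4 Hes and Hey genes were lower and 1 higher, as without it. The authors' factors moved the median of all genes by -0.09 (log2). With these factors 4360 genes were called higher and 5709 lower, against 5070 and 4879 in the main fit. With total counts 5542 were higher and 4367 lower. The background shares of higher and lower genes therefore depend on the scaling. Depth limits Hes2, Hes5, Hes7 and Heyl, and Hey2 in K36M.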

Other observations

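Other helix-loop-helix genes of the mesoderm fell into silent and expressed sets. Of 12 mesodermal genes 3 were tested and these 3 were higher; of all genes tested, 38.5% were called higher and 37.1% lower, which holds beside each list below. Scx, the tendon factor scleraxis, stood at 39.9 and 40.5 CPM in K36M and 5.45 and 5.60 CPM in WT, 7.27-fold higher (adjusted p = 1.23e-16 by edgeR). Twist2 and Twist1, factors of early mesenchyme, were 2.51-fold and 1.84-fold higher, while 6 genes of that list, Myod1 and Myog among them, had 0 counts in all libraries. Of 7 E protein and Id genes 4 were higher and 3 lower, with Id2 1.62-fold higher, Id3 1.79-fold lower and Id4 1.81-fold lower. The call for Id4 (adjusted p = 0.0108) was lost with the DESeq2 Wald test (0.114), without WT replicate 2 (0.126) and without K36M replicate 1 (0.0982).

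Genes that act beside Hes7 in somite segmentation were also sparse. Of 13, 7 were tested, with 3 higher, 1 lower and 3 not past the threshold. Axin2, a Wnt feedback gene of the segmentation clock, stood at 3.91 and 3.17 CPM in K36M and 0.121 and 0.130 CPM in WT, from 3 counts in each WT library, and Dusp6, an ERK phosphatase gene, was 3.41-fold higher. Ripply2 and Msgn1 had 0 counts. Of 8 tested BMP and Hedgehog response genes 4 were higher and 4 lower. Hhip, a Hedgehog-binding inhibitor, had 50 and 30 counts in K36M and 0 and 1 in WT. Like Axin2 and Dll1, Hhip met the low-count filter in the K36M libraries alone, so these genes could enter the test only with a difference. Ptch1, the Hedgehog receptor gene, was 1.80-fold lower, at 25.6 and 26.8 CPM in K36M and 47.2 and 46.8 CPM in WT.

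Among other cell type markers, 9 pericyte and smooth muscle genes summed to 1148 and 1069 in K36M and 1532 and 1473 CPM in WT. Of 6 tested, 2 were higher (Rgs5 and Tagln) and 2 lower (Cspg4 and Acta2). Blood and macrophage markers summed to 36.04 and 34.08 CPM in K36M and 3.55 and 3.61 CPM in WT. Most of the K36M sum was Hba-a1, while Hbb-b1 had 0 counts. Of 4 tested, 3 were higher (Hba-a1, Lyz2 and Csf1r) and 0 lower, which is 75% called, beside 75.6% of all genes. Lyz2 stood at 6.41 and 6.25 CPM in K36M and 1.90 and 1.65 CPM in WT. Epithelial markers summed to 24.3 and 25.8 CPM in K36M and 12.18 and 11.04 CPM in WT, with Epcam and Cldn4 at 0 counts. The tested epithelial genes moved in opposite directions: Cdh1 was higher, at 22.3 and 24.1 CPM in K36M and 5.89 and 5.56 CPM in WT, as was Krt8, and Krt14 was lower, at 0.775 and 0.719 CPM in K36M and 5.97 and 5.26 CPM in WT. Rgs5, Hba-a1, Csf1r and Krt8 met the low-count filter in the K36M libraries alone, so these genes could enter the test only with a difference. The part of these other cell types in the changes of the Hes and Hey genes was not tested.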
